A study of Mus musculus with 20 samples.

Results

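B16F10 melanoma cells with a knockout of Ccdc101 responded to thapsigargin, a drug that stresses the endoplasmic reticulum (ER), with changes of other sizes than control cells in 1644 genes. In the knockout 13 of 24 ER chaperone and folding genes rose more, 17 of 30 mitosis genes fell less, signalling genes such as Pde10a, Nr4a3 and Id1 rose less, and the melanocyte regulators Mitf and Sox10 fell further. The comparison is the interaction of treatment and genotype: the log2 change with thapsigargin in the knockout minus the log2 change in the control. It was computed for all 12540 genes that passed the filter on low counts, of 46603 gene identifiers, in the 8 melanoma libraries of a series of 20. No gene was selected beforehand for this test, but the gene lists and a panel of named genes were chosen with earlier results of these data known. A positive value means a larger rise or a smaller fall in the knockout, and a negative value a smaller rise or a larger fall.

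B16F10 is a mouse melanoma line, kept here in medium with puromycin in every group. Control cells (genotype Ctrl, called wild type in the series design) and Ccdc101 KO cells each received dimethyl sulfoxide vehicle or thapsigargin at 50 ng/mL for 8 hours, and each of these 4 groups had 2 libraries of total RNA. How the lines were derived, whether either is a single clone, and whether libraries of the same group came from different dishes are not given in the sources used here. P-values therefore measure only the spread between these libraries, which may be technical, and any other difference between the lines counts as a difference of the knockout.

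Thapsigargin blocks the SERCA pumps that load calcium into the ER. The emptied ER cannot fold its clients, and the sensors IRE1 (Ern1), ATF6 and PERK respond. IRE1 splices Xbp1 mRNA and, with ATF6, raises chaperones and export genes, while PERK slows translation and lets Atf4 raise amino acid transporters, synthetic enzymes and tRNA synthetases. Ccdc101, now named Sgf29, is a subunit shared by the SAGA and ATAC histone acetyltransferase complexes that binds methylated histone tails. Mitf and Sox10 are the transcription factors that maintain the melanocyte programme.

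Sgf29 was read first as a check of the labels. Levels are given in CPM, counts scaled to a common library size with TMM factors, and are not per length. Sgf29 had 29.6 and 28.2 CPM in the control vehicle libraries, 36.02 and 35.6 in the control thapsigargin libraries, 19.6 and 18.7 in the knockout vehicle libraries and 27.1 and 25.02 in the knockout thapsigargin libraries. Both knockout libraries were below both control libraries in each treatment, by -0.59 with vehicle and -0.46 with thapsigargin (edgeR adjusted p = 6.6e-07 and 1.8e-05). Its mRNA was lowered and not absent, and the counts do not show the edited bases. 12.8% of its exonic bases overlap genes on the other strand, so its counts are uncertain. Its thapsigargin change did not pass the test for a difference between the lines (interaction 0.13 ± 0.12 SE, edgeR adjusted p = 0.55).

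Depth ran from 10663938 to 16204005 counts per library. All 7 melanoma identity markers were detected, with a summed level of 16882 to 17222 CPM in control vehicle libraries and 11066 to 11104 in knockout thapsigargin libraries. Markers of other cells summed to at most 8.49 CPM for T cells, 1.84 for macrophages, 26.6 for fibroblasts and 1.17 for endothelium. The macrophage genes Adgre1, Itgam, C1qa and C1qb, the fibroblast genes Dcn and Lum, the endothelial genes Cdh5 and Kdr and all 5 keratinocyte genes were at 0. In bulk RNA, fewer cells of a kind and less RNA per cell cannot be told apart.

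Thapsigargin changed 9002 genes in control cells (71.8%) and 8817 in knockout cells (70.3%) by edgeR's quasi-likelihood test at an adjusted p under 0.05. The size of the change differed between the lines for 1644 genes (13.1% of those tested), of which 898 (7.16%) had the higher change in the knockout and 746 (5.95%) the lower. With DESeq2 the counts were 447 and 224, and with no filter on low counts 1383 had the higher change, so the higher changes made up 54.6% of the calls, 66.6% with DESeq2 and 70.5% with no filter. The 746 became 491 without control thapsigargin replicate 2 and 449 without knockout vehicle replicate 1. The median difference over all tested genes was 6.75e-04. Differences were mostly small: 9 of the positive and 105 of the negative ones reached 2-fold. Strong responses were compared without favouring either line by taking genes whose mean log2 change over both lines was at least 1 or at most -1. The 1216 strongly raised genes rose by a median of 1.63 in control and 1.45 in knockout cells, and 752 of them (61.8%) rose less in the knockout. The 1278 strongly lowered genes had medians of -1.44 and -1.42, and 724 (56.7%) fell less in the knockout.

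**Figure D1:**
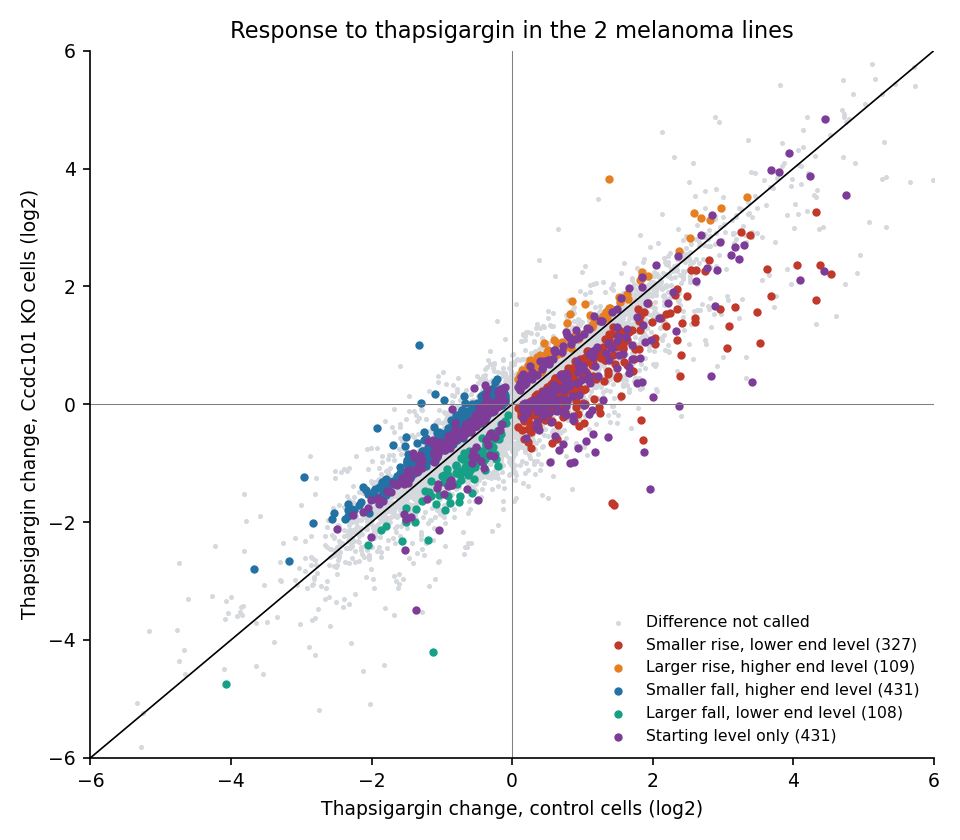
Log2 change with thapsigargin in control cells (horizontal axis) against that in Ccdc101 knockout cells (vertical axis), 1 point per tested gene. Grey points did not pass the test for a difference, coloured points are called genes of the 8 classes, and the black line marks equal changes. 38 genes outside the plotted range and 238 called genes in no class are not drawn. Most points follow the line, and red points (327 genes) lie below it on the right while blue points (431 genes) lie above it on the left.

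A difference in fold change can come from the level reached with thapsigargin or from the level before it. The called genes were therefore sorted by whether knockout and control differed with thapsigargin in the direction of the interaction. Where they did not, a vehicle difference in the opposite direction put the gene in a starting level class. In either direction, the lines differed with thapsigargin for 3956 genes (31.5%) and with vehicle for 3218 (25.7%). Genes of a starting level class can still differ with thapsigargin in the direction of the vehicle difference. Of the 1644 genes, 1406 fell into the 8 classes described next and 238 into none. Because the classes are defined by these calls, their sizes and medians describe them and test nothing further.

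Among genes that thapsigargin raised in control cells, 327 rose less in the knockout and ended lower. Their median log2 change was 0.74 in control and 0.30 in knockout cells, and their median vehicle difference was 0.03. Of the 327, 35 started higher in the knockout by the test and 49 lower. A further 156 had the lower change with a higher start called in the knockout and no lower end called. Their median vehicle difference was 0.56 and their median end difference -0.05, and 27 of them ended higher by the test. Of the 156, 86 rose by the test in the knockout, 54 had no called change there and 16 fell. An end difference that was not called can still be present in single genes of this kind. In the other direction 109 genes rose more and ended higher (0.58 in control, 0.88 in knockout). Of the 109, 7 started higher in the knockout by the test and 21 lower. Another 66 had a larger fold rise from a lower start without a higher end called. Their median end difference was 0.02, and 10 of the 66 ended lower by the test. The 327 became 203 to 217 without control thapsigargin replicate 2, knockout vehicle replicate 1 or either knockout thapsigargin library, and the 156 became 83 to 100 without any 1 of the 4 vehicle libraries or knockout thapsigargin replicate 1. The 109 became 72 without control thapsigargin replicate 2 and 71 without knockout vehicle replicate 1 or knockout thapsigargin replicate 2.

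Among genes that thapsigargin lowered in control cells, 431 fell less in the knockout and ended higher, with medians of -0.74 and -0.40. Of the 431, 48 started higher in the knockout by the test and 89 lower. Another 174 had the higher change from a lower start without a higher end called (vehicle difference -0.21, end difference 0.05), and 15 of them ended lower by the test. Of the 174, 132 fell by the test in the knockout, 34 had no called change there and 8 rose. Larger falls with a lower end level were found in 108 genes (-0.61 and -1.02), of which 7 started higher by the test and 42 lower. A further 35 fell more from a higher start without a lower end called (vehicle difference 0.41, end difference -0.01), and 7 of them ended higher by the test. In the end level classes, 205 of the 327 still rose by the test in the knockout, and 312 of the 431 still fell. Beyond those, 31 of the 327 fell in the knockout and 34 of the 431 rose there. The 431 became 280 without knockout thapsigargin replicate 2, and the 108 became 65 without control thapsigargin replicate 2. The 35 became 21 or 22 without control vehicle replicate 1, control thapsigargin replicate 2, knockout vehicle replicate 1 or knockout thapsigargin replicate 1.

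**Figure D2:**
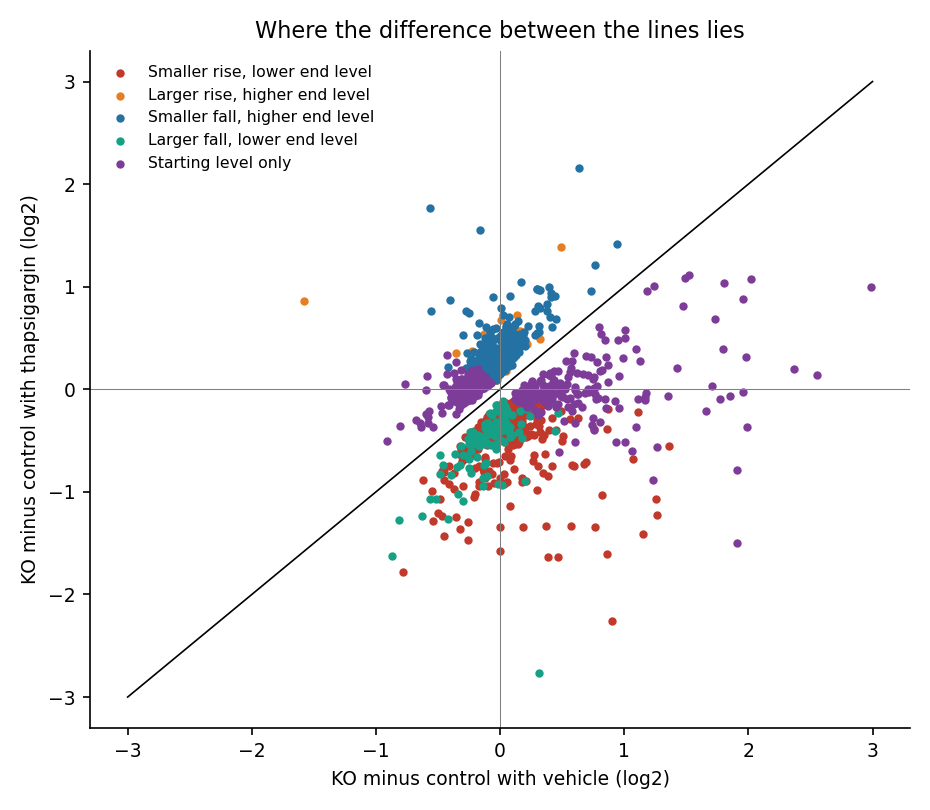
Difference between knockout and control cells with vehicle (horizontal axis, log2) and with thapsigargin (vertical axis, log2) for genes of the 8 classes; 2 genes lie outside the plotted range. Genes of the end level classes spread along the vertical axis and purple genes of the starting level classes along the horizontal axis. The black line marks equal differences.

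The ER folding machinery rose in both lines and somewhat more in the knockout. Of 24 tested chaperones and folding enzymes all rose in both lines, 13 had the larger rise in the knockout (54.2%, beside 7.16% of all tested genes) and 0 the smaller by edgeR (2 at an unadjusted p under 0.05, 0 by DESeq2), with a median difference of 0.17. Of the 13, 10 also ended higher by the test. Pdia4, a disulfide isomerase of the ER, had 629.7 and 624 CPM in vehicle-treated and 4945 and 4901 in thapsigargin-treated control cells, and 549.6 and 565 in vehicle-treated and 5677 and 5607 in thapsigargin-treated knockout cells. The knockout started lower and ended higher, without overlap of libraries in either treatment (interaction 0.37 ± 0.035 SE, edgeR adjusted p = 2.0e-10). Hspa5, the major ER chaperone BiP, had 1715 and 1709 CPM in control cells with vehicle and 17586 and 17110.1 with thapsigargin, against 1643 and 1648 in knockout cells with vehicle and 18757 and 18879 with thapsigargin. The difference was small beside rises of 3.34 in control and 3.52 in knockout cells (interaction 0.17 ± 0.029 SE, edgeR adjusted p = 2.2e-05). Hyou1, a large Hsp-type chaperone of the ER, and the isomerases Pdia6 and Pdia3 had differences of 0.31 ± 0.037, 0.30 ± 0.038 and 0.29 ± 0.037. Of the 11 members that did not pass, Ero1lb had the lowest value at -0.28 and Fkbp2 the highest at 0.26.

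ER stress elements, to which ATF6 binds together with NF-Y, were then counted in promoters. Among promoters that RefSeq supplies for the tested genes (9241 of 12540 symbols matched, GRCm38.p6, 250 bases before to 50 after each start), 0.195% held an exact ER stress element on either strand. It was found in 7 of 19 matched chaperone promoters (36.8%) and in 5 of the 84 matched promoters of genes that rose more and ended higher (5.95%). These sets overlap, since 10 chaperone and folding genes, Hspa5 and Pdia6 among them, are in that class. Shown are the 250 bases before the start of Hspa5 (chr2:34771840-34772089, plus strand) and Pdia6 (chr12:17266339-17266588, plus strand), because both carry the element and both rose further in the knockout, with the element in capitals.
Hspa5: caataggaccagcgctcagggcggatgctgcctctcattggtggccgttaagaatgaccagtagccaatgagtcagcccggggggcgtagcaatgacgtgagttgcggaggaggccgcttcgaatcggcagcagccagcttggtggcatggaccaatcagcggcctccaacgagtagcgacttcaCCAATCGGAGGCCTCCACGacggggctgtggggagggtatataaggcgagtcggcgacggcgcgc
Pdia6: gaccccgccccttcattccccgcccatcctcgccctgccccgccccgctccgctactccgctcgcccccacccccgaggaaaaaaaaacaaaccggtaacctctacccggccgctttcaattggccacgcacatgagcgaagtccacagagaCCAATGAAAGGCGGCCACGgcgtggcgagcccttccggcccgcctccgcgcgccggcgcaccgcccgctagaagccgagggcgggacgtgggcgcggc
A match describes the letters and is not evidence of binding.

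Genes that move proteins into and out of the ER followed the chaperones. Of 20 tested translocation and export genes 7 had the larger rise in the knockout (35%) and 0 the smaller by edgeR (0 at an unadjusted p under 0.05, 0 by DESeq2), with a median of 0.13. Spcs3 and Spcs2, subunits of the signal peptidase, differed by 0.23 ± 0.052 and 0.22 ± 0.052, and the translocon-associated Ssr3 by 0.22 ± 0.039. These 3 ended higher in the knockout, and Ssr2, of the same complex as Ssr3, differed only at the start (0.22 ± 0.047); 12.8% of its exonic bases overlap a gene on the other strand. Of 19 ER-associated degradation genes 3 passed the test (15.8%, beside 13.1% of all tested genes in either direction). Herpud1 and Vcp, the latter the ATPase that extracts proteins from the ER, had larger rises (0.32 ± 0.049 and 0.17 ± 0.047), and Edem3, a mannosidase-like factor that marks misfolded glycoproteins, had a smaller one (-0.24 ± 0.056). The call of Vcp was lost without knockout vehicle replicate 1 (0.15, edgeR adjusted p = 0.070) and without knockout thapsigargin replicate 2 (0.17, edgeR adjusted p = 0.060).

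The sensors and transcription factors divided. All 16 tested members rose in both lines, with median changes of 3.16 in control and 3.22 in knockout cells. 5 had the larger log2 rise in the knockout and 3 the smaller, beside 7.16% of all tested genes higher and 5.95% lower. With vehicle 7 of the 16 were lower in the knockout by the test and 2 higher (median difference -0.18). With thapsigargin 8 were lower and 0 higher (median -0.12), so 0 of the 5 with the larger rise ended higher. The 5 became 2 without control vehicle replicate 2, 1 without knockout vehicle replicate 1 and 3 without knockout thapsigargin replicate 1. Ern1, the IRE1 sensor and the 1 member with a smaller rise and a lower end level, had 38.3 and 37.8 CPM in the control vehicle libraries, 212 and 217 in the control thapsigargin libraries, 42.02 and 37.6 in the knockout vehicle libraries and 139.9 and 146 in the knockout thapsigargin libraries. Vehicle levels overlapped, and with thapsigargin both knockout libraries were below both control libraries (interaction -0.65 ± 0.080 SE, edgeR adjusted p = 7.2e-08). Atf6 (-0.20) and Atf3 had smaller fold rises from a higher start. Atf3, an early target of Atf4, had 5.05 and 5.48 CPM in vehicle-treated and 138 and 145 in thapsigargin-treated control cells, and 10.9 and 11.7 in vehicle-treated and 134 and 132 in thapsigargin-treated knockout cells. Its knockout level was higher by 1.11 before treatment, and with thapsigargin the line difference did not pass the test (-0.09, edgeR adjusted p = 0.13), so the difference in fold rise (interaction -1.20 ± 0.14 SE, edgeR adjusted p = 3.0e-08) came with a difference in starting level only.

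Larger rises from a lower start were the pattern of Atf4 and several of its targets. Atf4, the transcription factor translated when PERK is active, had 394 and 409 CPM in control cells with vehicle and 1442 and 1443 with thapsigargin, against 355 and 368 in knockout cells with vehicle and 1451 and 1435 with thapsigargin. It started lower in the knockout and met the control at the end (interaction 0.15 ± 0.042 SE, edgeR adjusted p = 0.012). Chac1, a glutathione-degrading enzyme, had 34.1 and 34.9 CPM in the control vehicle libraries, 239 and 257 in the control thapsigargin libraries, 20.5 and 25.2 in the knockout vehicle libraries and 212 and 209 in the knockout thapsigargin libraries, and started and ended lower in the knockout (interaction 0.36 ± 0.093 SE, edgeR adjusted p = 0.0067). Sesn2, a stress-induced restraint on mTORC1, and Atf5 differed by 0.31 ± 0.085 and 0.30. Trib3, a pseudokinase induced by Atf4, differed by 0.23 ± 0.079 with an edgeR adjusted p of 0.045. Without knockout vehicle replicate 1 only 1 of the 5 positive calls on the list was left. The values were then 0.13 for Atf4, 0.22 for Chac1, 0.22 for Sesn2 and 0.11 for Trib3, with edgeR adjusted p of 0.073, 0.20, 0.17 and 0.59. The call of Atf4 was also lost without control vehicle replicate 2 or knockout thapsigargin replicate 1 (values from 0.13 to 0.15, edgeR adjusted p up to 0.076). Trib3 lost its call without any 1 of 5 others as well. Its values ranged from 0.11 to 0.27 when the fit without knockout vehicle replicate 1 is included (edgeR adjusted p up to 0.59).

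Ddit3, the pro-apoptotic factor CHOP, had 30.97 and 36.96 CPM in vehicle-treated and 902 and 884 in thapsigargin-treated control cells, and 25.2 and 21.99 in vehicle-treated and 704 and 694 in thapsigargin-treated knockout cells. Its knockout libraries were lower in both treatments, and the fold rise did not pass the test for a difference (interaction 0.16 ± 0.086 SE, edgeR adjusted p = 0.26). Without control vehicle replicate 1 it passed as a larger rise in the knockout (0.30, edgeR adjusted p = 0.017). Xbp1, the target of IRE1, had 123 and 120.5 CPM in control cells with vehicle and 416 and 421 with thapsigargin, against 109 and 108 in knockout cells with vehicle and 415 and 409.7 with thapsigargin. Its difference was 0.14 (edgeR adjusted p = 0.077) and passed with another scaling (0.16, edgeR adjusted p = 0.047). The counts do not separate spliced from unspliced Xbp1.

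Amino acid genes of the integrated stress response, the programme led by Atf4, had higher changes in the knockout in 12 of 22 cases. Of the 22 tested members 14 passed the test (63.6%, beside 13.1% of all tested genes in either direction), 12 with the higher change and 2 with the lower, and the median was 0.16. Of the 12, 5 rose more and ended higher, 6 had a lower start without a higher end called and 1 fell less. The median end difference over the list was 0.02. Slc3a2, the shared heavy chain of several amino acid transporters, had 249 and 263 CPM in the control vehicle libraries, 899 and 944 in the control thapsigargin libraries, 214 and 223 in the knockout vehicle libraries and 1045 and 1028 in the knockout thapsigargin libraries. The knockout started lower and ended higher (interaction 0.40 ± 0.048 SE, edgeR adjusted p = 5.9e-08). Cth, which makes cysteine from cystathionine, rose by 2.69 in control and 3.16 in knockout cells on the log2 scale (interaction 0.47 ± 0.094 SE, edgeR adjusted p = 4.1e-04). Slc7a11, the cystine carrier that pairs with Slc3a2, started lower and also ended lower (interaction 0.38 ± 0.091 SE, edgeR adjusted p = 0.0030), and its call was lost without knockout vehicle replicate 1 (0.30, edgeR adjusted p = 0.082). The 2 exceptions were Aldh1l2, a mitochondrial folate enzyme (-0.37 ± 0.049), and Got1 (-0.17), both from a higher start. 14.1% of the exonic bases of Aldh1l2 overlap a gene on the other strand.

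Of 20 cytosolic tRNA synthetases 9 had the larger change in the knockout (45%) and 0 the smaller by edgeR (1 at an unadjusted p under 0.05, 0 by DESeq2), with a median of 0.14. Wars, Lars and Gars, which charge tryptophan, leucine and glycine tRNAs, differed by 0.24 ± 0.046, 0.24 ± 0.050 and 0.23 ± 0.039 and ended higher. Mars, the methionine enzyme, fell in both lines and fell less in the knockout (interaction 0.34 ± 0.068 SE, edgeR adjusted p = 4.6e-04). The amino acid response core TGATGNAA, at which Atf4 dimers bind, was found on either strand in 2.71% of matched promoters of tested genes. It was in 5 of 12 synthetase promoters (41.7%), 5 of 17 amino acid gene promoters (29.4%) and 4 of 15 promoters of the sensors and transcription factors (26.7%). Chac1 (chr2:119350992-119351241, plus strand) and Atf3 (chr1:191183334-191183583, minus strand) are shown because both hold the core, in capitals, and began on opposite sides of the control.
Chac1: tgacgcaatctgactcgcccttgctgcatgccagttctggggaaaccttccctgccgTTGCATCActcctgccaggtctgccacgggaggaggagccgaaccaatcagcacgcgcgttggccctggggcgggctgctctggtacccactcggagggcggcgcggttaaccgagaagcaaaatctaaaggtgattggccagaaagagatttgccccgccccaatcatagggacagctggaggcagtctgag
Atf3: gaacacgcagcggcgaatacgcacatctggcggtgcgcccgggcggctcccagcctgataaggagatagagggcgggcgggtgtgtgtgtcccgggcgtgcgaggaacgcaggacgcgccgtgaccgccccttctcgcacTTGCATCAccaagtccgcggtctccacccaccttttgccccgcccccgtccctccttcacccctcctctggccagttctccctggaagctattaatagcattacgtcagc

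Several signalling genes rose less in the knockout. Pde10a, a phosphodiesterase that degrades cyclic nucleotides, had 8.70 and 9.01 CPM in vehicle-treated and 46.4 and 47.7 in thapsigargin-treated control cells, and 8.75 and 8.94 in vehicle-treated and 14.7 and 16.7 in thapsigargin-treated knockout cells. The lines were level before treatment and separated by -1.57 after it (interaction -1.57 ± 0.16 SE, edgeR adjusted p = 1.3e-09). Of 20 tested genes of cAMP synthesis, breakdown and signalling 4 had the lower change and 1 the higher (Adcy3, 0.29), beside 5.95% of all tested genes lower and 7.16% higher. Pde1c, a calcium-dependent phosphodiesterase, rose in control cells and had no called change in knockout cells (interaction -0.98 ± 0.25 SE, edgeR adjusted p = 0.0063). Adcy7, an adenylate cyclase, fell further from a higher start (-0.40 ± 0.084). Pde7a had -0.29 ± 0.091 and lost its call without any 1 of 6 libraries (values from -0.30 to -0.24, edgeR adjusted p up to 0.17).

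Immediate early genes, which calcium and cAMP signals switch on rapidly, gave 5 lower and 2 higher changes among 23 tested, beside 5.95% of all tested genes lower and 7.16% higher, with a median of -0.27. Nr4a3, an orphan nuclear receptor, had 54.2 and 53.6 CPM in control cells with vehicle and 206 and 234 with thapsigargin, against 28.98 and 33.9 in knockout cells with vehicle and 64.5 and 63.04 with thapsigargin. It started lower in the knockout and the gap widened (interaction -1.003 ± 0.10 SE, edgeR adjusted p = 3.5e-08). Fosl2, an AP-1 subunit, rose less (interaction -1.14 ± 0.12 SE, edgeR adjusted p = 1.4e-09), starting higher in the knockout by 0.76 and ending lower by -0.38, so that more of the interaction lay in the starting level than in the end level. Sik1, a kinase that restrains CREB coactivators, fell in the knockout (interaction -1.10 ± 0.19 SE, edgeR adjusted p = 6.5e-05) and had no called change in control cells. Nr4a1, related to Nr4a3, was lowered by thapsigargin and had 67.9 and 66.03 CPM in the control vehicle libraries, 29.8 and 28.5 in the control thapsigargin libraries, 81.7 and 72.5 in the knockout vehicle libraries and 14.5 and 16.8 in the knockout thapsigargin libraries. It began higher in the knockout and ended lower (interaction -1.10 ± 0.11 SE, edgeR adjusted p = 2.1e-09). Crem (-0.59) was the other gene with a lower change, and Myc (0.32) and Klf6 (0.27) had higher ones; these 3 are named because the counts are small.

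Targets of bone morphogenetic protein signals showed the same direction for the Id genes, which encode inhibitors of helix-loop-helix transcription factors. Id1 had 1.89 and 1.95 CPM in vehicle-treated and 9.71 and 10.5 in thapsigargin-treated control cells, and 2.58 and 3.15 in vehicle-treated and 4.00 and 3.99 in thapsigargin-treated knockout cells. Vehicle libraries of the knockout were slightly higher and thapsigargin libraries both lower (interaction -1.91 ± 0.31 SE, edgeR adjusted p = 1.6e-05). Id3 had 19.9 and 19.9 CPM in control cells with vehicle and 106 and 106 with thapsigargin, against 18.6 and 14.5 in knockout cells with vehicle and 46.01 and 41.2 with thapsigargin, with the knockout below the control in both treatments (interaction -1.03 ± 0.12 SE, edgeR adjusted p = 5.3e-08). Id2 rose slightly in control cells and fell in knockout cells (interaction -0.76 ± 0.070 SE, edgeR adjusted p = 4.9e-10). The receptor-regulated Smad9 had a lower change too (interaction -1.06 ± 0.20 SE, edgeR adjusted p = 1.4e-04), as did the receptor Bmpr2 (-0.23). Smad7, an inhibitory Smad, went the other way with a larger rise (interaction 0.67 ± 0.18 SE, edgeR adjusted p = 0.0083), lost without control vehicle replicate 1 (edgeR adjusted p = 0.051), and Ski, a corepressor of Smads, did so by 0.22. In all 5 of 16 tested genes had the lower and 2 the higher change, beside 5.95% of all tested genes lower and 7.16% higher, with a median of -0.10.

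Among other genes with smaller rises, Ppm1e, a protein phosphatase, had 1.58 and 1.65 CPM in the control vehicle libraries, 17.3 and 19.1 in the control thapsigargin libraries, 4.06 and 4.29 in the knockout vehicle libraries and 13.3 and 11.7 in the knockout thapsigargin libraries. It started higher and ended lower in the knockout (interaction -1.91 ± 0.27 SE, edgeR adjusted p = 1.0e-06). Eno2, the neuronal enolase, rose by 3.63 in control and 2.30 in knockout cells (interaction -1.33 ± 0.15 SE, edgeR adjusted p = 9.3e-09). Most of this lay in a higher start (1.11), and the smaller end difference (-0.22, edgeR adjusted p = 0.0058) was not called with DESeq2, without control thapsigargin replicate 2 or without knockout thapsigargin replicate 1. Slc18a1, a vesicular monoamine transporter, had the most negative value of the class at 10 CPM or more (interaction -2.02 ± 0.55 SE, edgeR adjusted p = 0.0099), with counts near 0 before treatment, and its call was lost without knockout vehicle replicate 2 (-1.74, edgeR adjusted p = 0.12). Pak3, a p21-activated kinase (-1.70 ± 0.50), lost its call without any 1 of 3 libraries (values from -1.70 to -1.53, edgeR adjusted p up to 0.097). Cflar, an inhibitor of caspase 8 activation, had -0.27 ± 0.062. Of 9 tested small nucleolar RNA host genes 3 had the smaller rise (Snhg8 -0.56 ± 0.12, Snhg12 -0.48 ± 0.13 and Snhg6 -0.33 ± 0.10), beside 5.95% of all tested genes with a lower change. By edgeR 0 had the larger (0 at an unadjusted p under 0.05), with a median of -0.30. DESeq2 gave an adjusted p for 6 of the 9 and called 0 in either direction. Same-strand genes overlap 15.2% of the exonic bases of Snhg8 and 19.6% of those of Snhg12, and genes on the other strand 11.1% of those of Snhg6. Snhg12 and Snhg6 lost their calls without knockout vehicle replicate 1 (edgeR adjusted p = 0.29 and 0.080) and without control vehicle replicate 1, and Snhg6 also without any 1 of 3 others (values from -0.33 to -0.26, edgeR adjusted p up to 0.15).

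A difference in starting level is shown by Lgals3, which encodes galectin-3. It had 3.83 and 4.43 CPM in vehicle-treated and 71.6 and 68.7 in thapsigargin-treated control cells, and 31.6 and 33.6 in vehicle-treated and 142 and 138 in thapsigargin-treated knockout cells. The fold rise was smaller in the knockout (interaction -1.99 ± 0.13 SE, edgeR adjusted p = 1.4e-14), yet knockout libraries were above control libraries throughout, and the rise in CPM was larger there (107 against 65.98 CPM). Such a larger rise in CPM was found in 23 of the 156 genes of this class, and 27 of them still ended higher in the knockout. Cacna1a, a calcium channel subunit (-1.22 ± 0.22), Srgap1 (-0.87 ± 0.11), and Slc27a1, a fatty acid transport protein (-1.04 ± 0.20), belong here as well. Bcl2, which restrains apoptosis, had 34.5 and 35.8 CPM in control cells with vehicle and 76.9 and 81.4 with thapsigargin, against 46.2 and 46.7 in knockout cells with vehicle and 75.9 and 70.5 with thapsigargin, and converged at the end (interaction -0.52 ± 0.088 SE, edgeR adjusted p = 3.1e-05). Axl and Fn1, markers of the invasive state of melanoma, began and ended higher in the knockout (-0.40 ± 0.13 and -0.22 ± 0.059), but Axl lost its call without any 1 of 6 libraries (values from -0.42 to -0.33, edgeR adjusted p up to 0.13) and Fn1 without any 1 of 3 (values from -0.18 to -0.15, edgeR adjusted p up to 0.11). L1cam, a cell adhesion molecule of the same list, fell less and was higher throughout (0.47 ± 0.13), and its call was lost without control thapsigargin replicate 1 (0.30, edgeR adjusted p = 0.16). These 3, 2 lower and 1 higher, were the called members among 12 tested (25%, beside 13.1% of all tested genes in either direction).

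Outside the ER, the genes that rose more and ended higher included Plk2, a stress-induced kinase and p53 target, which had 7.48 and 8.34 CPM in the control vehicle libraries, 45.3 and 49.1 in the control thapsigargin libraries, 7.81 and 8.06 in the knockout vehicle libraries and 78.3 and 72.9 in the knockout thapsigargin libraries. Vehicle levels overlapped and thapsigargin levels were apart (interaction 0.67 ± 0.15 SE, edgeR adjusted p = 0.0022). Mllt11 had 0.58 ± 0.10 and Fdps, which makes farnesyl diphosphate, 0.71 ± 0.10; 26.7% of the exonic bases of Fdps overlap a gene model on the same strand. Als2cl (0.90 ± 0.30; 15.5% of its exonic bases overlap a gene on the other strand) lost its call without any 1 of 6 libraries (values from 0.77 to 0.99, edgeR adjusted p up to 0.19). Lower starting levels without a higher end were seen for Kctd15 (0.39 ± 0.076), Lmo4, a LIM-domain cofactor (interaction 0.46 ± 0.081 SE, edgeR adjusted p = 7.2e-05), Otud1, a deubiquitinase (0.39 ± 0.094), and Cdkn1a, the cell cycle inhibitor p21, which started and ended lower (0.31 ± 0.065).

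**Figure D3:**
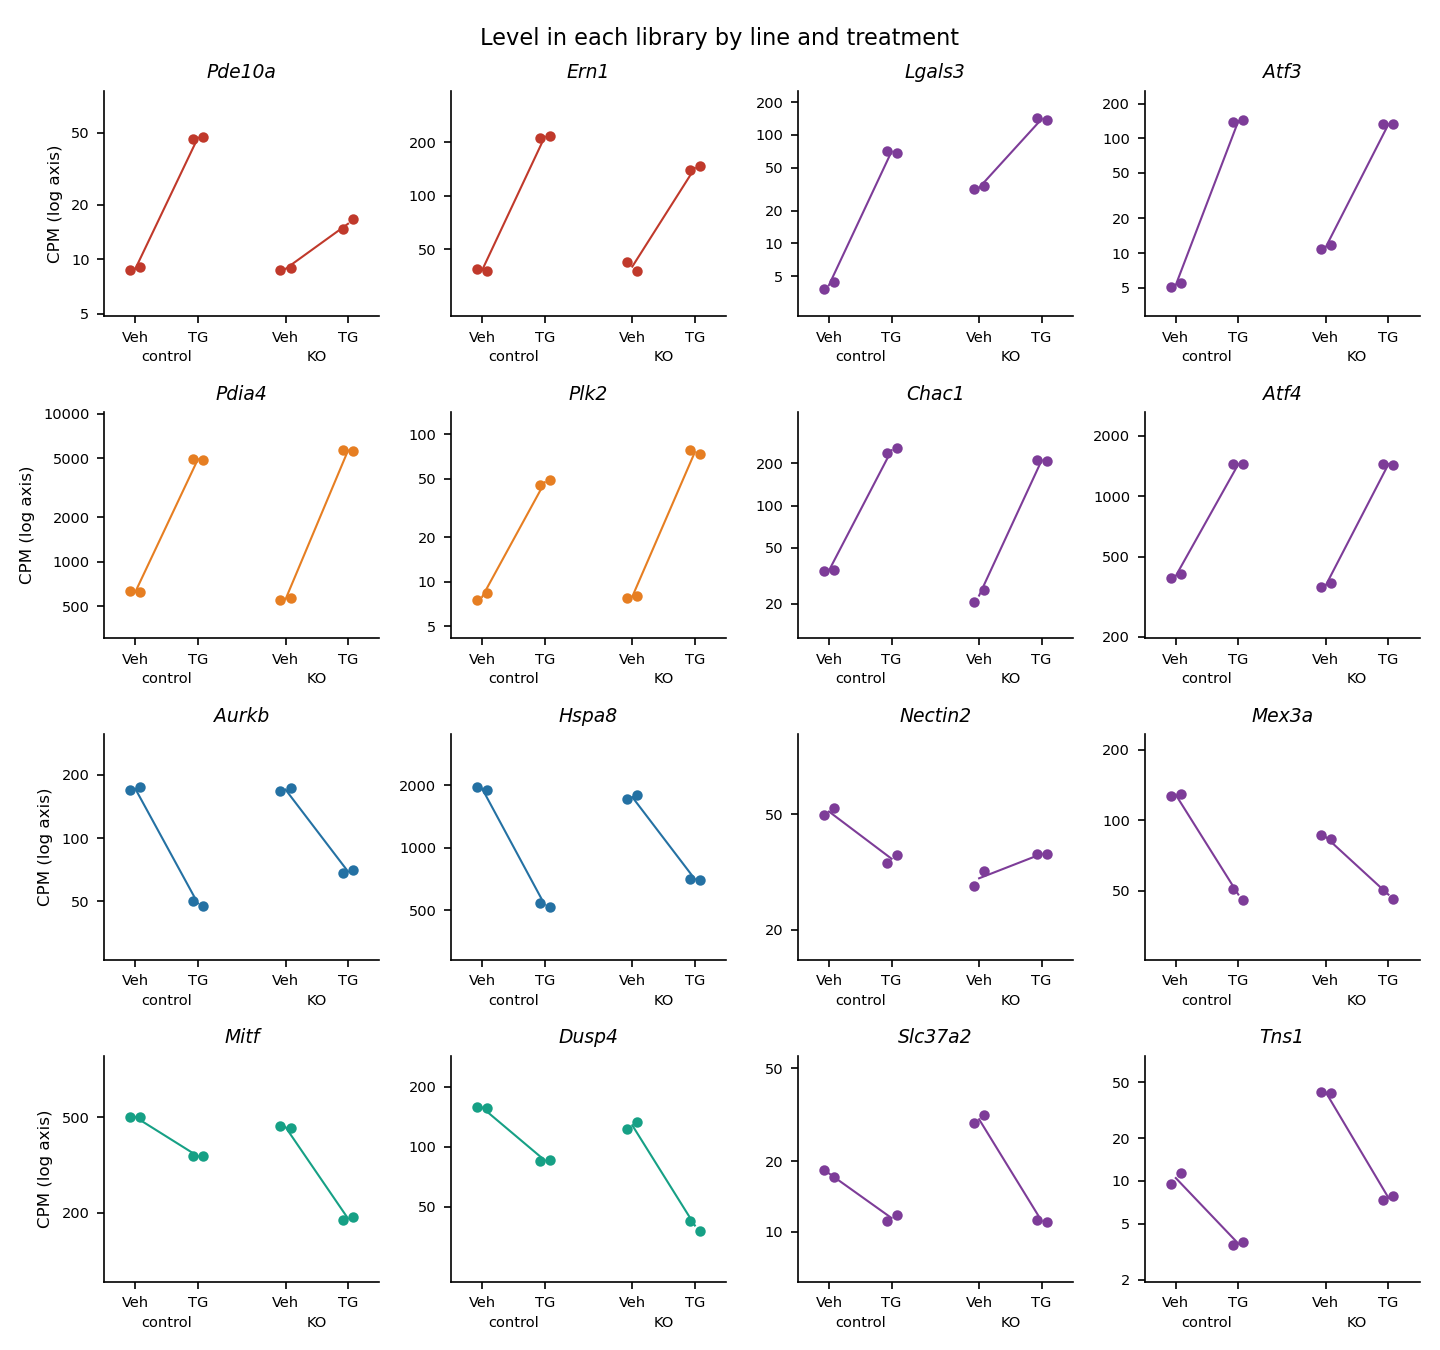
Level of 16 genes in each library, in normalised CPM on a log axis, for control and knockout cells with vehicle (Veh) and thapsigargin (TG); points are the 2 libraries of a group and lines join group means. Rows show, from the top, smaller rises, larger rises, smaller falls and larger falls. End level classes are in colour on the left and starting level classes in purple on the right. Pde10a starts level and separates with thapsigargin, while Atf4 starts apart and meets.

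Genes of cell division fell with thapsigargin and fell less in the knockout. Of 30 tested mitosis genes 29 fell in control cells, 17 had the smaller fall in the knockout (56.7%, beside 7.16% of all tested genes) and 0 the larger by edgeR (0 at an unadjusted p under 0.05, 0 by DESeq2), with a median difference of 0.22. Of the 17, 16 also ended higher. Aurkb, the kinase of the chromosomal passenger complex, had 169 and 174 CPM in vehicle-treated and 50.2 and 47.2 in thapsigargin-treated control cells, and 168 and 173 in vehicle-treated and 67.9 and 70.4 in thapsigargin-treated knockout cells. The lines overlapped with vehicle and were apart with thapsigargin (interaction 0.52 ± 0.073 SE, edgeR adjusted p = 1.2e-06). Incenp, its scaffold, and Ccnb1, the mitotic cyclin, differed by 0.44 ± 0.067 and 0.41 ± 0.075. Kif20a, a kinesin of cytokinesis, differed by 0.40 ± 0.064, but 29.3% of its exonic bases overlap Cdc23 on the other strand.

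DNA replication genes had differences of the same direction. All 36 fell in control cells. Of these, 13 had the smaller fall (36.1%, beside 7.16% of all tested genes) and 0 the larger by edgeR (2 at an unadjusted p under 0.05, 0 by DESeq2), with a median of 0.14. Of the 13, 5 ended higher and 5 had a lower start without a higher end called. Dut, which removes dUTP, had 137 and 140.3 CPM in control cells with vehicle and 23.6 and 23.02 with thapsigargin, against 117 and 113 in knockout cells with vehicle and 29.8 and 29.7 with thapsigargin, with the knockout lower before and higher after treatment (interaction 0.62 ± 0.092 SE, edgeR adjusted p = 4.0e-06). Gins3, a helicase subunit, ended higher (0.57 ± 0.15) and lost its call without replicate 2 of either thapsigargin group (values from 0.47 to 0.53, edgeR adjusted p up to 0.091). Cdc45, of the same helicase, ended higher too (0.37 ± 0.083). Mcm10, a replication initiation factor, started lower and ended level (0.32 ± 0.077).

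Sterol and fatty acid synthesis genes, controlled by the SREBP factors, had higher changes in the knockout in 14 of 29 tested (48.3%) and lower ones in 0 by edgeR (0 at an unadjusted p under 0.05, 0 by DESeq2), with a median of 0.23. Thapsigargin raised 15 of them and lowered 11 in control cells, so the shared direction covers larger rises (Fdps) and smaller falls. Scd2, a stearoyl-CoA desaturase, had 2766 and 2741 CPM in the control vehicle libraries, 1778 and 1798 in the control thapsigargin libraries, 2564 and 2600.1 in the knockout vehicle libraries and 2403 and 2394 in the knockout thapsigargin libraries. It changed by -0.62 in control and -0.11 in knockout cells (interaction 0.52 ± 0.034 SE, edgeR adjusted p = 1.4e-14). Nsdhl, an enzyme of cholesterol synthesis, started lower and differed by 0.51 ± 0.12.

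Cytosolic heat shock genes fell in 13 of 17 cases in control cells, and 7 had the smaller fall in the knockout, beside 7.16% of all tested genes with a higher change. Hspa4l alone had a lower change (-0.34 ± 0.12), lost without any 1 of 7 libraries (values from -0.39 to -0.24, edgeR adjusted p up to 0.25). The median was 0.14. Hspa8, the constitutive cytosolic chaperone, had 1960.5 and 1889 CPM in vehicle-treated and 543 and 521 in thapsigargin-treated control cells, and 1719 and 1789 in vehicle-treated and 710.0 and 703 in thapsigargin-treated knockout cells. The knockout was lower with vehicle and higher with thapsigargin (interaction 0.54 ± 0.041 SE, edgeR adjusted p = 7.6e-13); the gene has many processed copies, so its counts are uncertain. Hsph1, a nucleotide exchange factor for such chaperones, differed by 0.46 ± 0.054, and Cryab, a small heat shock protein, by 0.40 ± 0.056, with 17.04% of its exonic bases overlapping Hspb2 on the other strand.

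Targets of NRF2, the factor that answers oxidative stress, had the higher change in 6 of 21 tested (28.6%) and the lower in 0 by edgeR (0 at an unadjusted p under 0.05, 0 by DESeq2), with a median of 0.12. They included Tkt (0.40 ± 0.052) and Pgd (0.33 ± 0.055), enzymes of the pentose phosphate pathway, and Txnrd1 (0.32 ± 0.045), the thioredoxin reductase. Gsr, the glutathione reductase (0.30 ± 0.089), lost its call without any 1 of 4 libraries (values from 0.26 to 0.31, edgeR adjusted p up to 0.089). Glycolysis genes were mixed, with 7 higher and 3 lower of 21, beside 5.95% of all tested genes lower and 7.16% higher. The glucose transporter Slc2a1 changed by -0.23 in control and 0.07 in knockout cells (interaction 0.31 ± 0.079 SE, edgeR adjusted p = 0.0062), which did not pass with DESeq2 (0.33, adjusted p = 0.060). Pfkp, a phosphofructokinase, changed by -0.08 and -0.60 (interaction -0.52 ± 0.072 SE, edgeR adjusted p = 1.1e-06). Pdk1, a kinase that inhibits pyruvate dehydrogenase (-0.53 ± 0.18), lost its call without any 1 of 6 libraries (values from -0.57 to -0.31, edgeR adjusted p up to 0.29).

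Further genes with smaller falls were led by Nme4, a mitochondrial nucleoside diphosphate kinase, which had 24.6 and 27.9 CPM in control cells with vehicle and 6.50 and 9.61 with thapsigargin, against 20.3 and 23.8 in knockout cells with vehicle and 13.7 and 13.4 with thapsigargin. With thapsigargin the knockout libraries were both above the control libraries, whose own values were spread (interaction 1.00 ± 0.18 SE, edgeR adjusted p = 1.6e-04). Filip1 (0.82 ± 0.14), Adam19 (0.83 ± 0.14) and Sept6 (0.82 ± 0.20) followed. Rab3il1 (0.88 ± 0.28) lost its call without control vehicle replicate 1 or without replicate 2 of either thapsigargin group, where the value fell to as little as 0.56 (edgeR adjusted p = 0.36). 10.1% of the exonic bases of Adam19 overlap a gene on the other strand.

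A smaller fold fall from the starting level alone is shown by Mex3a, an RNA-binding protein, which had 127 and 129 CPM in the control vehicle libraries, 50.7 and 45.8 in the control thapsigargin libraries, 86.4 and 82.9 in the knockout vehicle libraries and 50.4 and 45.99 in the knockout thapsigargin libraries. Knockout libraries were lower with vehicle and overlapped the control with thapsigargin (interaction 0.59 ± 0.083 SE, edgeR adjusted p = 1.3e-06). Nectin2, an adhesion molecule and ligand of immune receptors, had 49.7 and 52.4 CPM in vehicle-treated and 34.1 and 36.2 in thapsigargin-treated control cells, and 28.4 and 31.8 in vehicle-treated and 36.6 and 36.5 in thapsigargin-treated knockout cells. It fell in control cells and rose in knockout cells to a common end level (interaction 0.82 ± 0.10 SE, edgeR adjusted p = 1.9e-07). Pcdh17 and Pdcd7 differed by 0.77 ± 0.21 and 0.62 ± 0.17, and their calls were lost when any 1 of 2 (values from 0.57 to 0.65, edgeR adjusted p up to 0.16) or 3 libraries (values from 0.39 to 0.57, edgeR adjusted p up to 0.22), in that order, was left out.

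Mitf and Sox10, and 7 of 20 tested pigment genes, fell further in the knockout and ended lower. Mitf had 500.2 and 499.8 CPM in control cells with vehicle and 343 and 343 with thapsigargin, against 460.0 and 449 in knockout cells with vehicle and 186 and 192 with thapsigargin. Knockout libraries were slightly lower with vehicle and far lower with thapsigargin (interaction -0.72 ± 0.049 SE, edgeR adjusted p = 1.9e-14); the fitted fall was -0.54 in control and -1.27 in knockout cells. Sox10 had 569 and 592 CPM in the control vehicle libraries, 377 and 398 in the control thapsigargin libraries, 486 and 492 in the knockout vehicle libraries and 234 and 223 in the knockout thapsigargin libraries, with the same order of groups (interaction -0.52 ± 0.050 SE, edgeR adjusted p = 3.7e-10). Among 9 tested melanocyte transcription factors Sox9 also had a lower change (-0.89 ± 0.27), lost without any 1 of 5 libraries (values from -0.88 to -0.76, edgeR adjusted p up to 0.11), and Zeb2, which supports differentiation together with Mitf, had a higher one (interaction 0.58 ± 0.055 SE, edgeR adjusted p = 2.0e-10). Zeb2 fell in control cells and rose in the knockout. Pax3, which acts with Sox10 on Mitf, did not pass the test (0.05).

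Of 20 tested pigment and melanosome genes 9 had the lower change (45%, beside 5.95% of all tested genes) and 0 the higher by edgeR (1 at an unadjusted p under 0.05, 0 by DESeq2), with a median of -0.29. Of the 9, 7 fell further and ended lower. With vehicle 17 of the 20 were already lower in the knockout by the test and 0 higher (median difference -0.36). With thapsigargin 19 were lower and 0 higher (median -0.55). Tyr, the rate-limiting enzyme of melanin synthesis, had 212 and 214 CPM in vehicle-treated and 153 and 156 in thapsigargin-treated control cells, and 167 and 169 in vehicle-treated and 89.8 and 92.6 in thapsigargin-treated knockout cells. The knockout was lower with vehicle and the gap widened (interaction -0.41 ± 0.060 SE, edgeR adjusted p = 2.7e-06). Bace2, a protease that cuts Pmel, differed by -0.75 ± 0.11, Mlph, an adaptor for melanosome transport, by -0.37 ± 0.052, and Dct, a melanin enzyme, by -0.18 ± 0.034. Gpnmb, a melanosome glycoprotein, rose in control cells and fell in knockout cells (interaction -0.41 ± 0.036 SE, edgeR adjusted p = 1.9e-11). Pmel, the fibril protein of melanosomes, had 3197 and 3129.6 CPM in control cells with vehicle and 2196 and 2299.8 with thapsigargin, against 2056 and 2155 in knockout cells with vehicle and 1407 and 1401 with thapsigargin. It was lower in the knockout in both treatments by similar amounts, and its difference did not pass the test (interaction -0.09 ± 0.038 SE, edgeR adjusted p = 0.11) except with a filter at 5 CPM (-0.11, edgeR adjusted p = 0.049). Mlana (0.09), Tyrp1 (-0.07) and Slc24a5 (-0.08) did not pass either.

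Of 7 tested other reported targets of Mitf 5 had the lower change (71.4%, beside 5.95% of all tested genes) and 0 the higher by edgeR (0 at an unadjusted p under 0.05, 0 by DESeq2), with a median of -0.56. Met, the hepatocyte growth factor receptor, had 593 and 593 CPM in the control vehicle libraries, 440.3 and 447 in the control thapsigargin libraries, 412 and 416 in the knockout vehicle libraries and 208 and 214 in the knockout thapsigargin libraries, and Cdk2, a cell cycle kinase, 359 and 371 CPM in vehicle-treated and 172 and 172 in thapsigargin-treated control cells, and 236 and 235 in vehicle-treated and 74.9 and 71.8 in thapsigargin-treated knockout cells. In both genes each knockout group was below its control (-0.56 ± 0.047 and -0.60 ± 0.059). Ppargc1a, a regulator of mitochondrial biogenesis, rose in control cells and had no called change in the knockout (interaction -0.69 ± 0.078 SE, edgeR adjusted p = 1.0e-08), and Tbc1d16, a Rab GTPase-activating protein, was alike (-0.60 ± 0.082). The fifth was Bcl2, described above. Negative feedback genes of the MAPK pathway gave 4 lower changes of 16, beside 5.95% of all tested genes, and 0 higher by edgeR (1 at an unadjusted p under 0.05), with a median of -0.32. DESeq2 gave an adjusted p for 6 of the 16 and called 1 lower and 0 higher. Dusp4, a phosphatase of MAP kinases, had 159 and 156 CPM in control cells with vehicle and 85.2 and 85.8 with thapsigargin, against 123 and 133 in knockout cells with vehicle and 42.6 and 38.1 with thapsigargin, and ended lowest in the knockout with thapsigargin (interaction -0.79 ± 0.078 SE, edgeR adjusted p = 5.1e-10). Etv5, a transcription factor induced by the pathway, differed by -0.74 ± 0.19. Dusp7 (-0.33 ± 0.11) lost its call when any 1 of the 8 libraries was left out (values from -0.36 to -0.29, edgeR adjusted p up to 0.14), and Dusp10 (-1.03 ± 0.32) with any 1 of 6 (values from -1.04 to -0.71, edgeR adjusted p up to 0.21).

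The sequence CATGTG, the core of the M-box at which Mitf binds, was found on either strand in 9.90% of matched promoters of tested genes. It was in 7 of 14 matched pigment promoters (50%) and in 17 of 84 matched promoters of genes that fell further and ended lower (20.2%). These sets overlap, since 7 of the 20 tested pigment genes are in that class. The promoters of Tyr (chr7:87493513-87493762, minus strand) and Dct (chr14:118052247-118052496, minus strand) are shown with the core, or its reverse complement CACATG, in capitals. The promoter listed for Mitf (chr6:97991533-97991782, plus strand) starts inside the annotated gene (97807052 to 98021349) and is shown with its single cAMP response element TGACGTCA in capitals, because Mitf fell further in the knockout.
Tyr: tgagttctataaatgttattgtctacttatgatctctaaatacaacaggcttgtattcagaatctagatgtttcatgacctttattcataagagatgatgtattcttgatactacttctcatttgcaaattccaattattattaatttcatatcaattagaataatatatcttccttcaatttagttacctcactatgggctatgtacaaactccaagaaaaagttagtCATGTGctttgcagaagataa
Dct: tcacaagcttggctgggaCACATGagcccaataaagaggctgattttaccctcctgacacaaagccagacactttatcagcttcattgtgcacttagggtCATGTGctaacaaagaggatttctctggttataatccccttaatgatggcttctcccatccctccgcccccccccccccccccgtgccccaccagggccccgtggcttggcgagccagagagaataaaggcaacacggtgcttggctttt
Mitf: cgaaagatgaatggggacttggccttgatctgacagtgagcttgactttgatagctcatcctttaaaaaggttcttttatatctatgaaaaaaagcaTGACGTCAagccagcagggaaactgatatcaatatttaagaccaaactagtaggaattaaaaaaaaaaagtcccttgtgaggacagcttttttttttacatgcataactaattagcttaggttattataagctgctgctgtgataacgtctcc
The element TGACGTCA was in 3.74% of matched promoters of tested genes, in 5.77% of those whose rise was smaller with a lower end level and in 4.76% of those that fell further with a lower end level. It shares TGACGT with the unfolded protein response element TGACGTGG, found in 1.04%.

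**Figure D4:**
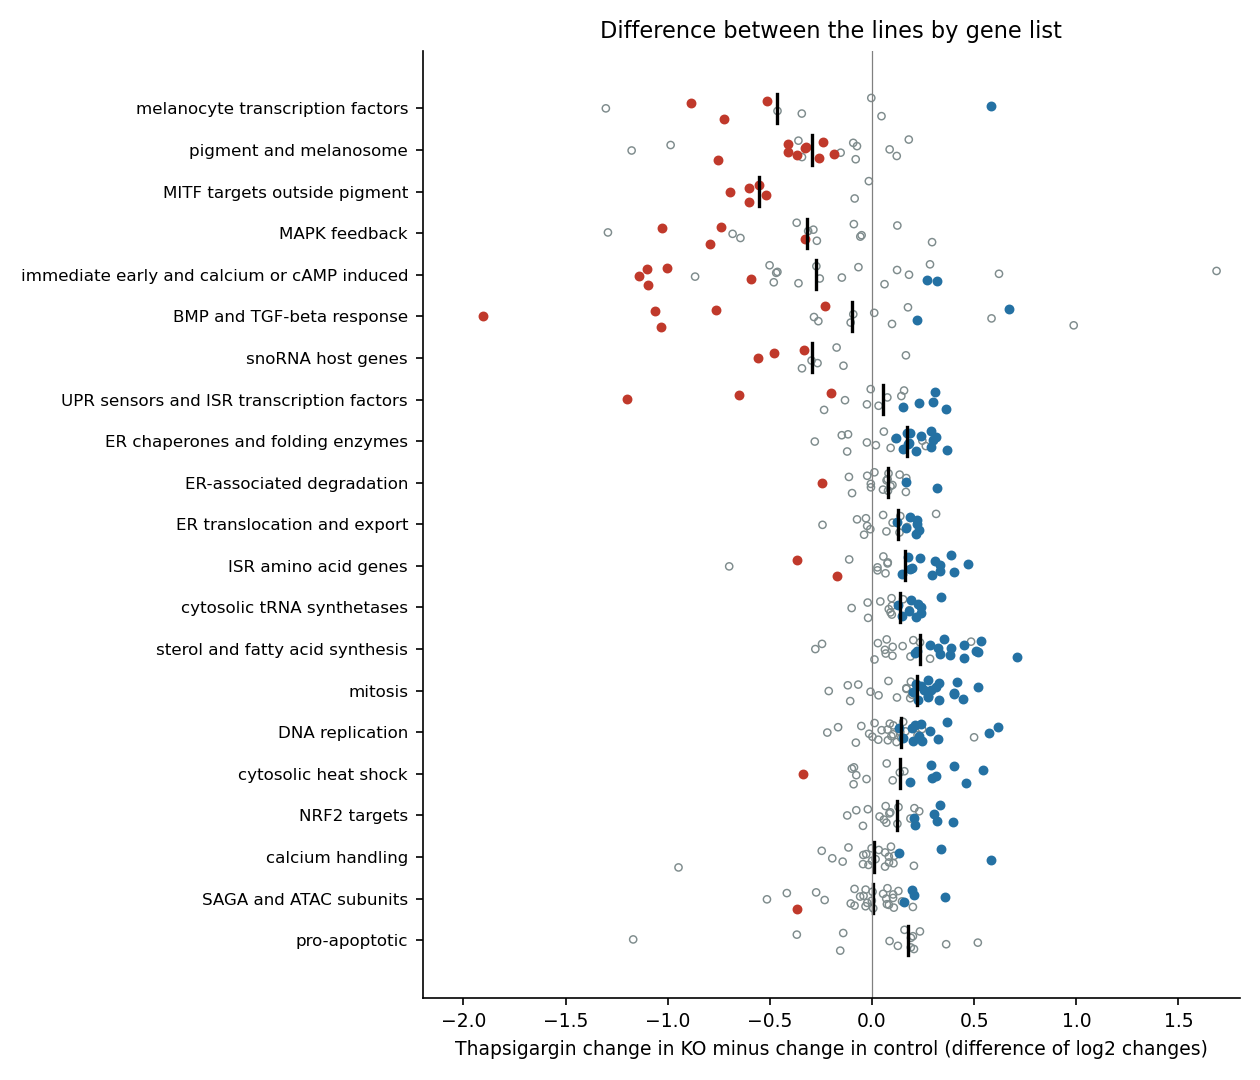
Difference of log2 thapsigargin changes (knockout minus control) for tested members of 21 gene lists, 1 point per gene, with the median as a black bar; 2 members outside the plotted range are not drawn. Filled blue points passed the test as positive, filled red points as negative, and open points did not pass. Called points are mostly blue in the chaperone, amino acid, sterol, mitosis and replication lists (13, 12, 14, 17 and 13 blue members) and mostly red in the pigment and MAPK lists (9 and 4 red members).

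Larger falls also occurred outside these lists. Cntfr, a cytokine receptor, had 116 and 125 CPM in the control vehicle libraries, 62.6 and 61.7 in the control thapsigargin libraries, 89.9 and 89.9 in the knockout vehicle libraries and 25.4 and 26.2 in the knockout thapsigargin libraries, with the knockout lower throughout (interaction -0.84 ± 0.086 SE, edgeR adjusted p = 1.1e-09). Megf10, an engulfment receptor, began higher and ended lower (interaction -0.85 ± 0.10 SE, edgeR adjusted p = 2.3e-08). Its control fall was not called with DESeq2, at an adjusted p under 0.01, or without replicate 1 of either control group. With classes split by size it moved to the larger falls from a higher start. Hpgds, a prostaglandin D synthase (-0.81 ± 0.24), lost its call without any 1 of 5 libraries (values from -0.84 to -0.58, edgeR adjusted p up to 0.22). Some larger falls came from a higher start without a lower end level. Tns1, a focal adhesion protein, had 9.55 and 11.4 CPM in vehicle-treated and 3.50 and 3.71 in thapsigargin-treated control cells. Knockout cells had 42.7 and 41.8 with vehicle and 7.37 and 7.82 with thapsigargin, so Tns1 stayed higher there (interaction -0.94 ± 0.22 SE, edgeR adjusted p = 0.0027). Slc37a2, a sugar-phosphate transporter, had 18.4 and 17.1 CPM in control cells with vehicle and 11.1 and 11.8 with thapsigargin, against 29.1 and 31.5 in knockout cells with vehicle and 11.2 and 10.998 with thapsigargin and converged (interaction -0.81 ± 0.16 SE, edgeR adjusted p = 2.6e-04). Dok7 (-1.14 ± 0.22) and Mrgpre (-1.08 ± 0.29) were further cases, as was Hr, a nuclear receptor corepressor (-0.67 ± 0.21), which lost its call without any 1 of 6 libraries (values from -0.72 to -0.58, edgeR adjusted p up to 0.12). The value of Mrgpre did not pass without control thapsigargin replicate 2 or knockout thapsigargin replicate 1 (values from -0.92 to -0.90, edgeR adjusted p up to 0.11).

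In 89 of the 1644 genes thapsigargin had called changes of opposite sign in the lines. Besides Id2, Gpnmb, Zeb2 and Nectin2 they include Gadd45g, a growth arrest gene, which had 1.16 and 1.65 CPM in the control vehicle libraries, 2.43 and 2.85 in the control thapsigargin libraries, 2.42 and 3.42 in the knockout vehicle libraries and 1.87 and 1.62 in the knockout thapsigargin libraries. It rose in control cells and fell in the knockout from a higher start (interaction -1.67 ± 0.42 SE, edgeR adjusted p = 0.0049), at 1 to 3 CPM. Its control rise was not called without control vehicle replicate 1 or control thapsigargin replicate 2, nor was that of Id2 without control thapsigargin replicate 1, so these opposite signs rest on single libraries. Of 18 tested p53 targets it was the 1 with a lower change, while Plk2, Cdkn1a and Phlda3 had a higher one, beside 5.95% of all tested genes lower and 7.16% higher. Phlda3 (0.36 ± 0.12) lost its call without any 1 of 5 libraries (values from 0.23 to 0.37, edgeR adjusted p up to 0.26).

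Of 14 pro-apoptotic genes tested 0 passed by edgeR, beside 13.1% of all tested genes in either direction. An unadjusted p under 0.05 was found for 5 with a higher change and 1 with a lower. DESeq2 called 0 of the 4 to which it gave an adjusted p, and the median was 0.17. Bbc3, the death inducer PUMA, had 4.81 and 6.69 CPM in vehicle-treated and 10.97 and 10.7 in thapsigargin-treated control cells, and 3.05 and 3.59 in vehicle-treated and 10.1 and 8.12 in thapsigargin-treated knockout cells. Both lines rose, and the difference did not pass (interaction 0.52 ± 0.26 SE, edgeR adjusted p = 0.20). Bcl2l11, the death inducer BIM, fell in both (interaction -0.37 ± 0.29 SE, edgeR adjusted p = 0.47). Of 9 class I antigen presentation genes 0 passed by edgeR (1 at an unadjusted p under 0.05), with a median of 0.06. DESeq2 called 0 of the 2 to which it gave an adjusted p. Of 20 interferon-stimulated genes 1 passed (5%, beside 13.1% of all tested genes in either direction). It was Ifit2 (0.36 ± 0.10), lost without knockout thapsigargin replicate 2 (0.33, edgeR adjusted p = 0.062). Of 13 NF-kB genes 2 had the higher change (15.4%, beside 7.16% of all tested genes), Nfkb2 (0.22 ± 0.073) and Nfkbie (0.73 ± 0.23). Both lost their calls when any 1 of 5 (values from 0.19 to 0.23, edgeR adjusted p up to 0.14) or 6 libraries (values from 0.47 to 0.79, edgeR adjusted p up to 0.18) was left out. 18.1% of the exonic bases of Nfkb2 overlap a gene on the other strand. Of 8 survival genes 3 had the lower change (37.5%, beside 5.95% of all tested genes): Bcl2, Cflar and Mcl1 (-0.18 ± 0.062), the last lost without any 1 of 6 libraries (values from -0.20 to -0.11, edgeR adjusted p up to 0.35). A p above the threshold does not show that the lines responded alike.

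Calcium handling genes passed in 3 of 26 cases, all with the higher change (11.5%, beside 13.1% of all tested genes in either direction). Atp2a2, the SERCA2 pump blocked by thapsigargin, had 771 and 765 CPM in control cells with vehicle and 1858 and 1883 with thapsigargin, against 735 and 727 in knockout cells with vehicle and 1927 and 1970.4 with thapsigargin. Vehicle levels were slightly lower in the knockout, and the higher values there with thapsigargin did not pass the test between lines (interaction 0.13 ± 0.038 SE, edgeR adjusted p = 0.016). The call was lost without knockout thapsigargin replicate 2 (0.12, edgeR adjusted p = 0.11). Ppp3ca, the catalytic subunit of calcineurin, differed by 0.34 ± 0.071. The channel Orai1 differed by 0.58 ± 0.19 and lost its call without any 1 of 5 libraries (values from 0.51 to 0.60, edgeR adjusted p up to 0.11). Atp2a3, the SERCA3 pump, had 0 and 0.0751 CPM in the control vehicle libraries, 28.7 and 33.7 in the control thapsigargin libraries, 0.0781 and 0.438 in the knockout vehicle libraries and 39.3 and 33.5 in the knockout thapsigargin libraries. With so few vehicle counts its fitted fold is no bound, and the difference did not pass (edgeR adjusted p = 0.24). Cd74, the class II invariant chain, had 0.0608 and 0.0751 CPM in vehicle-treated and 9.51 and 10.3 in thapsigargin-treated control cells, and 0.0781 and 0.175 in vehicle-treated and 35.5 and 29.8 in thapsigargin-treated knockout cells, ending higher in the knockout by 1.72 (edgeR adjusted p = 1.9e-15), while its interaction did not pass (edgeR adjusted p = 0.76).

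Among 31 tested SAGA and ATAC genes, Sgf29 included, 4 had the higher change and 1 the lower (16.1% in either direction, beside 13.1%), with a median of 0.01. Atxn7l3, a cofactor of the deubiquitinase module, had the highest called value of these (interaction 0.36 ± 0.072 SE, edgeR adjusted p = 4.1e-04). Kat2a, the acetyltransferase, and Zzz3, an ATAC subunit, differed by 0.20 ± 0.057 and 0.20 ± 0.061, Taf9b by -0.37 ± 0.12 and Sf3b3 by 0.16. Kat2a lost its call without knockout thapsigargin replicate 1 (0.18, edgeR adjusted p = 0.085), and Zzz3 and Taf9b without any 1 of 4 (values from 0.17 to 0.21, edgeR adjusted p up to 0.097) and 5 libraries (values from -0.38 to -0.27, edgeR adjusted p up to 0.18).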

How the data were processed

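Total RNA of 8 mouse B16F10 melanoma libraries was read from the table of gene counts that the authors deposited for 20 libraries, in which values are whole, not normalised counts per Ensembl identifier. STAR 2.6.0c, HTSeq and GRCm38/mm10 are listed per the submitters' processing notes; the annotation release, strand setting and any filter are not given in the sources used here. Counting without strand would mix overlapping genes, so overlaps of at least 10% of the exonic bases of a gene picked by the naming rule are stated.

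Names came from GENCODE M21 (46005 of 46603 identifiers; unnamed ones held 0.0759% of counts). Genes passing filterByExpr were scaled by TMM and fitted with edgeR 4.0.16 (R 4.3.3, limma 3.58.1), robust quasi-likelihood, 1 mean per group and 4 residual degrees of freedom; the common biological coefficient of variation was 2.71%. Log2 changes carry SEs, p-values are 2-sided and Benjamini-Hochberg adjusted over 12540 genes, and a gene was called under 0.05. A class counts as end level where the lines differed by the test with thapsigargin in the direction of the interaction. It counts as starting level where they did not, but differed by the test with vehicle in the opposite direction. CPM are normalised by TMM.

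Named genes are up to 5 per class at 10 CPM or more (no unnamed gene models), up to 4 called per list for 37 lists, and a panel; some of these are not reported here, and others named for small counts were chosen after their values were seen. The comparison, lists and panel were chosen with earlier results of these data known. Alternatives were DESeq2 1.42.0, RLE scaling, other filters, a replicate block, all 20 libraries, an adjusted p of 0.01, classes split by size, and leaving out each library. The scripts were tested on simulated data.

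Promoters (250 bases before to 50 after a start) came from RefSeq on GRCm38.p6, matched by symbol for 9241 of 12540 genes; no protein sequences were used here.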

Additional observations from a re-analysis of the deposited data

Results flagged for a closer look

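The response to thapsigargin differed between the control and knockout lines, by edgeR's test of the difference itself, for 898 genes with a higher and 746 with a lower log2 change in the knockout. In 89 of these genes the drug had called changes of opposite sign in the lines. Among the named ones, Gadd45g, Gpnmb and Id2 rose in control cells and fell in knockout cells, with interactions of -1.67, -0.41 and -0.76. The control rise was not called for Gadd45g without control vehicle replicate 1 or control thapsigargin replicate 2, nor for Id2 without control thapsigargin replicate 1. Nectin2 and Zeb2 fell in control cells and rose in knockout cells, with interactions of 0.82 and 0.58. With 2 libraries a group, no test for outlying libraries was made. Knockout vehicle replicate 1 had 1.65% of its counts in mitochondrial genes, against 1.31% to 1.41% in the other melanoma libraries. Whether this bears on the calls that depend on it was not tested.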

How the results depend on the processing

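Each group had 2 libraries, so the calls rest on 4 residual degrees of freedom and on a spread that may be technical. No named gene and no count of calls changed direction under any setting, and of 133 called named genes 92 kept their call in every setting that gave a value. Calls numbered 1090 without knockout vehicle replicate 1 and up to 1565 without any other library. The replicate block gave 1541 calls, 1528 of them among the 1644. Deviations of same-numbered libraries from their group means correlated by -0.07 to 0.03 between groups. A correlation over all genes does not show whether they shared a culture or batch, which was not tested. RLE scaling gave 1715 calls, 60.2% of them positive, and a filter at 5 CPM gave 50.3% positive.

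DESeq2 gave an adjusted p for 5976 genes and called 671, of which 662 were among the 1644: 447 higher and 224 lower. In the order end level then starting level, it put 103 and 33 genes in smaller rises, 44 and 41 in larger rises, 182 and 88 in smaller falls, and 47 and 8 in larger falls. Of 141 named genes it gave an adjusted p for 95, and it ended 14 of their calls (Fn1, Gsr, Ifit2, Kat2a, Mcl1, Nfkb2, Pde7a, Phlda3, Sesn2, Slc2a1, Snhg6, Snhg12, Trib3 and Zzz3). Named genes to which DESeq2 gave no adjusted p include Pde10a, Id1, Ppm1e, Slc18a1, Plk2 and Sik1, so their calls were neither kept nor ended by it. It called 11 mitosis, 9 sterol, 3 lower immediate early and 3 higher sensor and transcription factor genes. With no filter 1383 genes were higher, with 101 smaller rises from the start, 171 larger rises to a higher end and 673 smaller falls to a higher end. At an adjusted p under 0.01 edgeR called 498 higher and 410 lower, with 180 and 69 smaller rises, 48 and 37 larger rises, 232 and 93 smaller falls, 61 and 21 larger falls, 11 mitosis genes and 2 sensors and factors.

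Leaving out 1 library at a time gave 624 to 873 higher and 449 to 692 lower changes. Smaller rises ranged from 203 to 338 by end level and from 83 to 111 by start, and larger rises from 71 to 103 and from 44 to 78. Smaller falls ranged from 280 to 413 and from 120 to 164, and larger falls from 65 to 94 and from 21 to 26. On the lists the calls ranged from 9 to 12 for chaperones, 8 to 9 for pigment, 12 to 17 for mitosis, 11 to 15 for sterol synthesis, 5 to 7 for immediate early genes and 1 to 5 for sensors and factors. A stricter threshold lowers the number of called genes by construction. Leaving out a library need not lower a count. Without control thapsigargin replicate 1 the 327 smaller rises by end level became 338, and the 5 immediate early genes became 7. The 66 larger rises by start became 78 without knockout vehicle replicate 2. The cause of changes other than those from the threshold was not tested. Genes under 10 CPM in every group gave 113 of the 1644 calls.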
